A study of Mus musculus with 9 samples.

Results

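The genes described here are 5 STAT genes (Stat2, Stat3, Stat4, Stat5a and Stat5b) and 4 genes of the SOCS family of feedback inhibitors (Cish, Socs1, Socs2 and Socs3). They were found by their symbols in the count table, where they are 9 of 55278 named genes, and all 9 passed the filter on low counts that left 15417 genes for testing. The data are RNA-seq read counts from 9 libraries of dendritic cells sorted from the thymus of C57BL/6 mice at 8 weeks of age, with no treatment or altered gene named in the labels. Each of the 3 populations has 3 libraries and takes its name from a protein of the cell surface. CD301b is a lectin encoded by Mgl2, SIRPa marks the conventional dendritic cells of type 2 (cDC2), and XCR1 is the chemokine receptor that marks those of type 1 (cDC1). The sources used here do not give the sort gates, and although the series names 3 mice, none ties a library to a mouse or a pool, so each p-value is set by how these libraries vary. Libraries held 20246092 to 25438864 counts.

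STAT proteins are transcription factors that lie latent in the cytoplasm. When a cytokine binds its receptor, JAK kinases attached to the receptor chains phosphorylate a STAT, which then pairs up, enters the nucleus and binds DNA. SOCS proteins are made in response to that signal and end it, by blocking JAK kinases or receptor chains and by tagging them for degradation through their SOCS box. STAT5 carries the signals of GM-CSF, TSLP and the common gamma chain cytokines and is known to induce Cish and Socs2, STAT3 carries those of the gp130 family and of IL-10 and is known to induce Socs3, STAT4 carries those of IL-12, and STAT2 carries those of type I interferon. FLT3 ligand and GM-CSF, which sustain dendritic cells, both feed into this pathway.

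Promoter sequence was looked up for the genes with the largest differences, Cish and Socs3, and for Stat2 and Socs1, which hold interferon-type motifs. RefSeq windows (GRCm38.p6) from 250 bases before to 50 after a transcript start were given for 8 of the 9 genes, Socs2 being the other, in 11 windows. Motifs of 3 kinds were searched on both strands and are in capitals below. They are the GAS element bound by STAT dimers, TTCNNNGAA, its wider form known from STAT6, TTC and GAA with 4 bases between them, and the core of the interferon-stimulated response element, GAAA and GAAA with 2 bases between them. Each sequence is written 5′ to 3′ in the direction of the gene, and the windows are chr9:107296409-107296708 (plus strand) for Cish, chr11:117969317-117969616 (minus strand) for Socs3, chr10:128270248-128270547 (plus strand) for Stat2 and chr16:10785487-10785786 (minus strand) for Socs1.
Cish: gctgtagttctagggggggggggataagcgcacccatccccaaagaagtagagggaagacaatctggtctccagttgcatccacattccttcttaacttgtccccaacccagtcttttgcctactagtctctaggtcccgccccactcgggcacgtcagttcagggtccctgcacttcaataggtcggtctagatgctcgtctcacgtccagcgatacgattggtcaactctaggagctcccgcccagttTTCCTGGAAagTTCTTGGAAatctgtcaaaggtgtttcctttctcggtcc
Socs3: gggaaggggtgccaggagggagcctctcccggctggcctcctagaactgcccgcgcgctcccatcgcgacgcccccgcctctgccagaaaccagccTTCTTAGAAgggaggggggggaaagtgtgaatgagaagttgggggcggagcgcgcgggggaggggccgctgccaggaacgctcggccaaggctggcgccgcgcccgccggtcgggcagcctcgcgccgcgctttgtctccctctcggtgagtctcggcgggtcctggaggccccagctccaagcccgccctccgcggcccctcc
Stat2: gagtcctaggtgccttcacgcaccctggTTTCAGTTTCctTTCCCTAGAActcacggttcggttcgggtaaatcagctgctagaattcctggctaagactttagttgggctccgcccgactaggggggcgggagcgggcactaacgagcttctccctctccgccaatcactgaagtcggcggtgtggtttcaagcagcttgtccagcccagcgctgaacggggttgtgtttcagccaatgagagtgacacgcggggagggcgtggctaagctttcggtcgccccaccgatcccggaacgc
Socs1: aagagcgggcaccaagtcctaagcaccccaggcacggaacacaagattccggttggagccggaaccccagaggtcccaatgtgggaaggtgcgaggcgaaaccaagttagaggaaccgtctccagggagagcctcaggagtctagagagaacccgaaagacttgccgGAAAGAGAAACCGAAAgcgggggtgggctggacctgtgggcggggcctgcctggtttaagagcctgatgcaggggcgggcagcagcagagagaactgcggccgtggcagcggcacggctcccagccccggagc

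The Cish window held 2 GAS motifs, TTCCTGGAA and TTCTTGGAA, the first beginning at the start site and the second 11 bases into the transcript. The Socs3 window held 1, TTCTTAGAA, beginning 154 bases before the start site. These positions are counted from the RefSeq start of each window. The Cish and Socs3 windows lie inside the gene spans given further down, so another annotated start would give other positions. Of 32851 promoter windows of the same length, 8.30% held a GAS motif and 0.457% held 2 or more. Stat2 held the response element core on the opposite strand, as TTTCAGTTTC, and next to it the wider form TTCCCTAGAA, while Socs1 held 2 overlapping cores, GAAAGAGAAA and GAAACCGAAA. The core was in 3.44% of all windows and the wider form in 6.95%. The core was also in 1 of the 2 windows of Stat4, as GAAAGTGAAA, and no motif of these 3 kinds was found in the windows of Stat3, Stat5a or Stat5b. A match describes letters only and is not a measured binding site.

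By the test, the dividing line in 7 of these 9 genes lay between the XCR1 population and the others. For Socs2 and Stat4, CD301b stood about midway, with log2 fold changes of -0.51 and -0.62 against SIRPa and 0.49 and 0.74 against XCR1. CD301b and SIRPa cells had about 11 times the Socs3 transcript of XCR1 cells, several times the Cish transcript, and higher Stat4, Stat5a, Stat5b and Socs2. Stat2 went the other way and was highest in XCR1 cells, and for Stat3 and Socs1 no comparison passed the test. With edgeR's quasi-likelihood test and adjustment over the 15417 genes tested (threshold 0.05), 7 of 9 genes passed in CD301b against XCR1 (22.6% of all genes tested passed there), 6 higher in CD301b (13.5% of all genes) and 1 lower (9.12%). In SIRPa against XCR1 the same 7 of 9 passed (24.7% of all genes), 6 higher in SIRPa (13.9%) and 1 lower (10.7%). Both comparisons use the same XCR1 libraries. In CD301b against SIRPa 0 of 9 passed (4.28% of all genes, 2.2% higher and 2.08% lower in CD301b). Of the 9, 4 had an unadjusted p under 0.05. The share of all genes at that level was not counted, so nothing about the 9 can be read from it. DESeq2 called 1 of the 9, Socs2, and 981 of 25264 genes in all. The median log2 fold change of the 9 genes was -0.13 in CD301b against SIRPa, 0.74 in CD301b against XCR1 and 0.54 in SIRPa against XCR1, where that of all genes tested was 0.01, 0.05 and 0.06. In bulk libraries, fewer cells with a transcript and less of it per cell cannot be told apart.

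**Figure D1:**
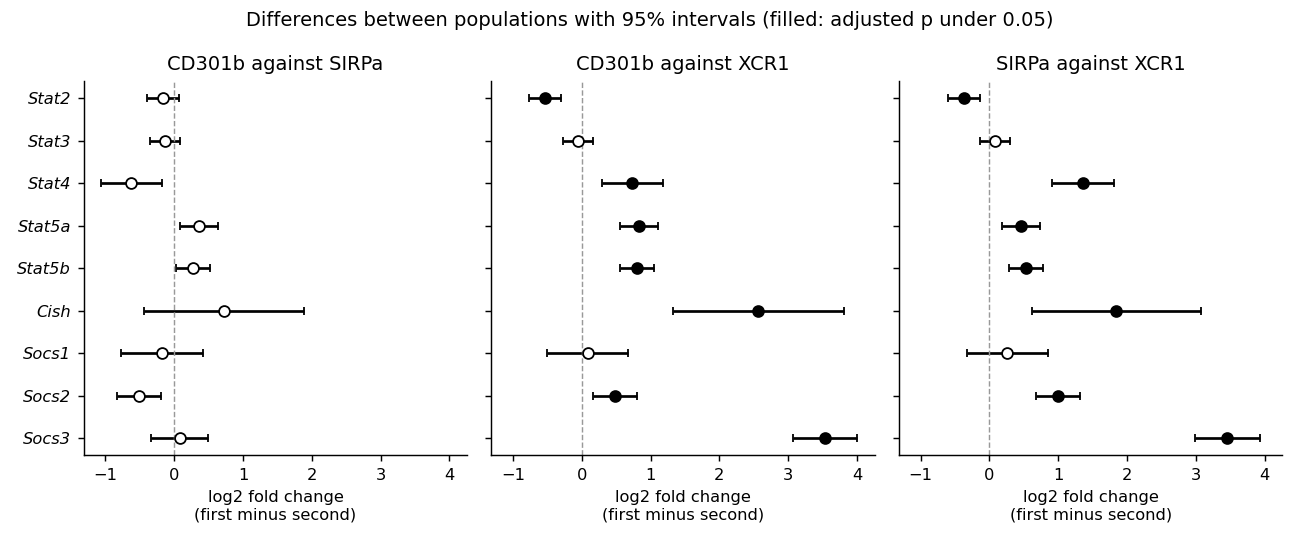
Log2 fold change of each gene in the 3 comparisons (x axis, first population minus second, with 95% intervals), filled where the adjusted p was under 0.05. Socs3 lies farthest to the right in both comparisons with XCR1, at 3.54 and 3.46, and Stat2 is the filled point below 0, at -0.53 and -0.36.

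Levels below are in CPM, reads of a gene scaled to a common library size after TMM normalization, in the order of replicates 1, 3 and 4 for CD301b and 1, 2 and 3 for SIRPa and XCR1, and coordinates are those of GENCODE M21 on mm10. Stat2 (chromosome 10, 128270559 to 128292849, plus strand), which carries type I interferon signals, stood at 114, 131 and 113 CPM in CD301b, against 135, 137 and 129 in SIRPa and 175, 186 and 156 in XCR1 libraries. The XCR1 libraries were above the other 6 without overlap, and the CD301b and SIRPa libraries overlapped. Against XCR1, Stat2 was lower in CD301b by 0.53 on the log2 scale (log2 fold change -0.53 ± 0.11 SE, adjusted p = 0.00113), a level 1.45 times higher in XCR1. In SIRPa the log2 fold change was -0.36 ± 0.11 (adjusted p = 0.0191). That call was lost without SIRPa replicate 3 (adjusted p = 0.0722), XCR1 replicate 1 (0.0586) or XCR1 replicate 2 (0.0956), and over all its alternatives the adjusted p ran from 0.00586 to 0.0956.

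Stat3 (chromosome 11, 100885098 to 100939540, minus strand), the transducer of IL-6 family and IL-10 signals, stood at 194, 183 and 174 CPM in CD301b, against 208, 197 and 197 in SIRPa and 209.97, 188 and 174 in XCR1 libraries. The SIRPa libraries lay just above the CD301b libraries, and the XCR1 libraries overlapped both. Its log2 fold change was -0.13 in CD301b against SIRPa (95% interval -0.35 to 0.09, adjusted p = 0.693), -0.05 in CD301b against XCR1 (-0.27 to 0.17, 0.808) and 0.08 in SIRPa against XCR1 (-0.14 to 0.30, 0.687). At their 3′ ends Stat3 and Stat5a overlap by 72 bases on opposite strands, which is 0.756% of the exonic bases of Stat3 and 1.01% of those of Stat5a.

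Stat4 (chromosome 1, 51987148 to 52107189, plus strand), through which IL-12 acts, stood at 34.7, 20.9 and 26.2 CPM in CD301b, against 50.1, 40.3 and 35.7 in SIRPa and 17.1, 14.9 and 17.1 in XCR1 libraries. The 3 populations did not overlap, with SIRPa highest and XCR1 lowest. SIRPa exceeded XCR1 2.57-fold (log2 fold change 1.36 ± 0.22, adjusted p = 5.66e-05) and CD301b exceeded XCR1 1.67-fold (0.74 ± 0.21, adjusted p = 0.0152). The second of these was lost without CD301b replicate 1, the highest library of its group (0.50, adjusted p = 0.136), or on leaving out XCR1 replicate 2 (0.67, 0.0580), and its adjusted p over the alternatives was 0.00560 to 0.136. CD301b and SIRPa were not told apart (-0.62 ± 0.21, adjusted p = 0.120), except without CD301b replicate 1, where the adjusted p was 0.0496 (range over alternatives 0.0496 to 0.498). Of the 3872 exonic bases of Stat4, 1033 are shared with Gm28177 on the same strand, so reads from there may have been counted for either gene or for neither. Gm28177 itself had 4, 3 and 14 counts in the CD301b, SIRPa and XCR1 libraries.

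Stat5a (chromosome 11, 100859351 to 100885169, plus strand) and Stat5b (chromosome 11, 100780731 to 100850724, minus strand) are neighbouring paralogs, 8626 bases apart, that both carry GM-CSF and TSLP signals. Stat5a stood at 143, 151 and 115 CPM in CD301b, against 90.6, 109 and 118 in SIRPa and 79.8, 78.6 and 72.2 in XCR1 libraries. Stat5b stood at 132, 131 and 119 CPM in CD301b, against 111, 98.8 and 107 in SIRPa and 76.9, 76.4 and 65.4 in XCR1 libraries. Both genes were lowest in XCR1, where no library reached the lowest of the other populations. For Stat5b the CD301b libraries also lay above the SIRPa libraries without overlap, while for Stat5a CD301b replicate 4 fell within the SIRPa range. Against XCR1, Stat5a was higher 1.77-fold in CD301b (0.82 ± 0.13, adjusted p = 7.24e-05) and 1.38-fold in SIRPa (0.46 ± 0.13, adjusted p = 0.0127). Stat5b was higher 1.75-fold in CD301b (0.81 ± 0.12, adjusted p = 2.56e-05) and 1.45-fold in SIRPa (0.54 ± 0.12, adjusted p = 0.00177). The Stat5a call in SIRPa was lost without SIRPa replicate 2 (0.43, adjusted p = 0.0567) or replicate 3 (0.37, 0.0989), and its adjusted p ran from 0.00525 to 0.0989 over the alternatives.

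Reads of these paralogs can be exchanged where their sequence is the same. Of the distinct 50-base words in the annotated transcripts of Stat5a, 8.21% also occur in those of Stat5b, and 11.0% of those of Stat5b occur in Stat5a. Their summed level, which such an exchange leaves as it is, was 264 ± 26.1 CPM (SD, n = 3 in each population) in CD301b, 212 ± 12.5 in SIRPa and 149.8 ± 10.5 in XCR1. It ran from 234 to 282 CPM in CD301b, against 201 to 226 in SIRPa and 138 to 157 in XCR1, ranges that do not overlap. The sum was not tested, and neither gene passed edgeR's test between CD301b and SIRPa (adjusted p = 0.159 and 0.281). Groups did not overlap for 22.1% of all genes in that comparison, 34.4% in CD301b against XCR1 and 40.2% in SIRPa against XCR1. Per exonic base, Stat5a reads were 0.749 to 0.895 times those of Stat5b in CD301b libraries, 0.635 to 0.857 in SIRPa and 0.799 to 0.857 in XCR1, ranges that overlap.

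**Figure D2:**
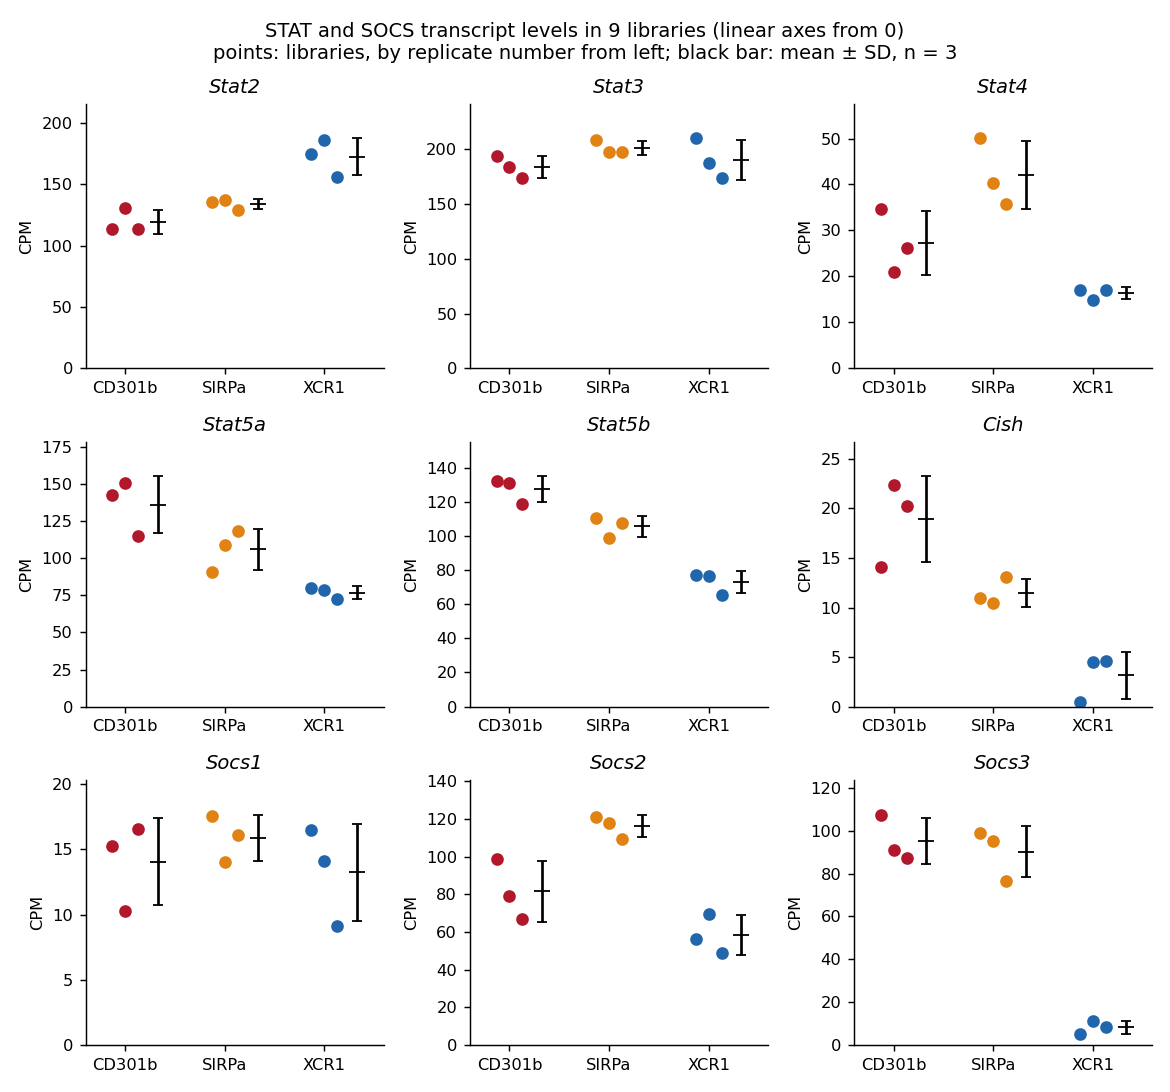
Level of each gene (y axis, CPM from 0) in the 9 libraries by population (x axis), with points for libraries and a black bar for mean ± SD of 3. The XCR1 points of Socs3 lie between 5.09 and 11.2 CPM and those of the other populations between 76.6 and 108 CPM, and Cish in XCR1 replicate 1 lies at 0.449 CPM.

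Among the inhibitors, Cish (chromosome 9, 107296026 to 107302784, plus strand) is the STAT5-induced protein whose promoter holds the 2 GAS motifs above. Its population means stood in the order of those of Stat5a and Stat5b, though none of these genes passed between CD301b and SIRPa. Socs2, also known to be induced by STAT5, had another order, with means of 116 CPM in SIRPa, 81.5 in CD301b and 58.3 in XCR1. Cish stood at 14.1, 22.4 and 20.3 CPM in CD301b, against 10.9, 10.5 and 13.1 in SIRPa and 0.449, 4.47 and 4.63 in XCR1 libraries. The 3 populations did not overlap. CD301b exceeded XCR1 5.93-fold (log2 fold change 2.57 ± 0.57, adjusted p = 0.00528) and SIRPa exceeded XCR1 3.60-fold (1.85 ± 0.56, adjusted p = 0.0292). XCR1 replicate 1 held only 9 Cish reads, where the other XCR1 libraries held 94 and 96, and its 95% counting interval of 0.205 to 0.852 CPM lies below theirs. Without it the log2 fold changes were 2.05 (adjusted p = 0.000149) and 1.33 (0.00646), and both calls were kept. The call in SIRPa was lost without CD301b replicate 4 (adjusted p = 0.0597), SIRPa replicate 1 (0.0831), SIRPa replicate 2 (0.0757) or SIRPa replicate 3 (0.0940), over a range of 6.39e-06 to 0.0940. Between CD301b and SIRPa the log2 fold change was 0.72 with a 95% interval of -0.44 to 1.88 (adjusted p = 0.665). As a ratio to the summed level of Stat5a and Stat5b, the Cish level was 5.12% to 8.67% in CD301b libraries, 5.03% to 5.79% in SIRPa and 0.287% to 3.36% in XCR1. On the opposite strand, Gm17041 covers 479 and Gm17040 covers 261 of the 6419 exonic bases of Cish, and over all 9 libraries they held 5 and 6 counts.

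Socs1 (chromosome 16, 10782240 to 10785536, minus strand), the interferon-induced inhibitor that acts on JAK kinases directly, was low in each library. It stood at 15.3, 10.3 and 16.6 CPM in CD301b, against 17.6, 14.0 and 16.1 in SIRPa and 16.5, 14.1 and 9.11 in XCR1 libraries, all overlapping. The log2 fold changes were -0.18 (95% interval -0.77 to 0.41) in CD301b against SIRPa, 0.09 (-0.50 to 0.68) in CD301b against XCR1 and 0.26 (-0.33 to 0.85) in SIRPa against XCR1, with adjusted p of 0.900, 0.888 and 0.594. These intervals are wide and do not show equal levels.

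Socs2 (chromosome 10, 95385362 to 95417180, minus strand), which restrains growth hormone and STAT5 signals, stood at 98.7, 79.1 and 66.9 CPM in CD301b, against 121, 118 and 109.6 in SIRPa and 56.2, 69.8 and 48.8 in XCR1 libraries. The SIRPa libraries lay above the other 6, while CD301b replicate 4 fell below XCR1 replicate 2. SIRPa exceeded XCR1 2.00-fold (log2 fold change 0.997 ± 0.15, adjusted p = 4.39e-05). CD301b exceeded XCR1 1.40-fold (0.49 ± 0.15, adjusted p = 0.0263), a call lost on leaving out CD301b replicate 1 (0.31, adjusted p = 0.204), XCR1 replicate 1 (0.46, 0.0806) or 3 (0.37, 0.123) and in a fit of only those 6 libraries (0.0673), over a range of 0.00168 to 0.204. Against SIRPa, CD301b had -0.51 ± 0.15 and missed the threshold (adjusted p = 0.0655). It passed in 6 of 14 alternatives, among them DESeq2 (0.0363) and the fits that left out CD301b replicate 1 (0.0210) or XCR1 replicates 2 (0.0415) or 3 (0.0417), over a range of 0.00868 to 0.290.

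Socs3 (chromosome 11, 117966079 to 117970047, minus strand), the STAT3-induced inhibitor that binds gp130, gave the widest separation of the 9 genes. It stood at 108, 91.2 and 87.2 CPM in CD301b, against 99.0, 95.2 and 76.6 in SIRPa and 5.09, 11.2 and 8.29 in XCR1 libraries. The highest XCR1 library, at 11.2 CPM, lay far below the lowest of the other 6, at 76.6 CPM. CD301b exceeded XCR1 11.6-fold (log2 fold change 3.54 ± 0.22, adjusted p = 6.49e-10) and SIRPa exceeded XCR1 11.0-fold (3.46 ± 0.22, adjusted p = 8.22e-10), and both calls held in all 14 alternatives. CD301b and SIRPa libraries overlapped, with a log2 fold change of 0.08 (95% interval -0.33 to 0.49, adjusted p = 0.947). Stat3 itself showed no such gap, as its levels above show.

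Between CD301b and SIRPa, groups that do not overlap were seen for 5 of the 9 genes (22.1% of all genes tested): Stat3, Stat4, Stat5b, Cish and Socs2. None of these 5 passed the test. For Stat5a the log2 fold change was 0.36 ± 0.13 (adjusted p = 0.159), which passed without CD301b replicate 4 (0.47, adjusted p = 0.0431), with a range of 0.0431 to 0.574, and for Stat5b it was 0.27 ± 0.12 (adjusted p = 0.281). Against XCR1, groups did not overlap for 6 of 9 genes in CD301b (34.4% of all genes) and 7 of 9 in SIRPa (40.2%).

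Divided by exonic length, levels can be set beside each other between genes. In XCR1 libraries Stat2 led the STAT genes with 29.1 ± 2.56 CPM per kilobase (SD, n = 3), followed by Stat3 with 19.99 ± 1.92, Stat5b with 13.2 ± 1.17, Stat5a with 10.8 ± 0.571 and Stat4 with 4.23 ± 0.324. Before division by length the XCR1 mean of Stat3 was above that of Stat2, at 190 against 172 CPM, so this lead rests on the lengths used. In CD301b libraries Stat5b stood at 23.0 ± 1.33, Stat2 at 20.1 ± 1.67, Stat3 at 19.3 ± 1.07, Stat5a at 19.1 ± 2.66 and Stat4 at 7.04 ± 1.80 CPM per kilobase. The first 4 of these lay close together there, whereas in XCR1 the spread between Stat2 and Stat5a was far wider than their SDs. In SIRPa libraries the values were 22.6 ± 0.682 for Stat2, 21.1 ± 0.678 for Stat3, 19.1 ± 1.11 for Stat5b, 14.8 ± 1.96 for Stat5a and 10.8 ± 1.90 for Stat4.

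Among the inhibitors, Socs3 had the highest level per length in CD301b and SIRPa, at 32.97 ± 3.73 and 31.2 ± 4.13 CPM per kilobase, ahead of Socs2 at 8.56 ± 1.68 and 12.2 ± 0.631. In XCR1 libraries Socs3, at 2.83 ± 1.05, stood below Socs2, at 6.11 ± 1.12, and Socs1, at 4.55 ± 1.29. Cish had the lowest level per length in each population, at 2.95 ± 0.670 in CD301b, 1.79 ± 0.216 in SIRPa and 0.496 ± 0.369 in XCR1. Lengths are unions of all annotated exons, which lowers the value of a gene with long rare transcripts.

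The JAK kinases upstream were divided too. Of 4 JAK kinases, Jak1, Jak2 and Jak3 were higher in both CD301b and SIRPa than in XCR1, and Tyk2, a kinase of the type I interferon receptor, was lower. Jak2, which serves the GM-CSF receptor, stood at 966 ± 57.4 CPM in CD301b, against 747 ± 45.7 in SIRPa and 503 ± 24.9 in XCR1, with log2 fold changes against XCR1 of 0.94 ± 0.09 (adjusted p = 9.37e-08) and 0.57 ± 0.09 (6.52e-05). It was also higher in CD301b than in SIRPa (0.37 ± 0.09, adjusted p = 0.0206), a call lost without CD301b replicate 3 (0.0562) or SIRPa replicate 1 (0.155), 2 (0.0541) or 3 (0.0767). Jak1, shared by most of these receptors, stood at 395 ± 5.37, 377 ± 7.58 and 259 ± 42.2 CPM, and Jak3, the partner of the common gamma chain, at 24.9 ± 5.58, 27.8 ± 2.11 and 12.3 ± 4.03 CPM in CD301b, SIRPa and XCR1. Tyk2 stood at 106 ± 4.94, 104 ± 2.96 and 135 ± 13.7 CPM, with log2 fold changes against XCR1 of -0.35 ± 0.11 in CD301b (adjusted p = 0.0323) and -0.38 ± 0.11 in SIRPa (0.0178). Both Tyk2 calls were lost without XCR1 replicate 1 (0.177 and 0.118), that in CD301b also without CD301b replicate 3 (0.0555), CD301b replicate 4 (0.0685) or XCR1 replicate 2 (just over the threshold) and in a fit of only those 6 libraries (0.0595), and that in SIRPa without SIRPa replicate 2 (0.0594) or 3 (0.0534).

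**Figure D3:**
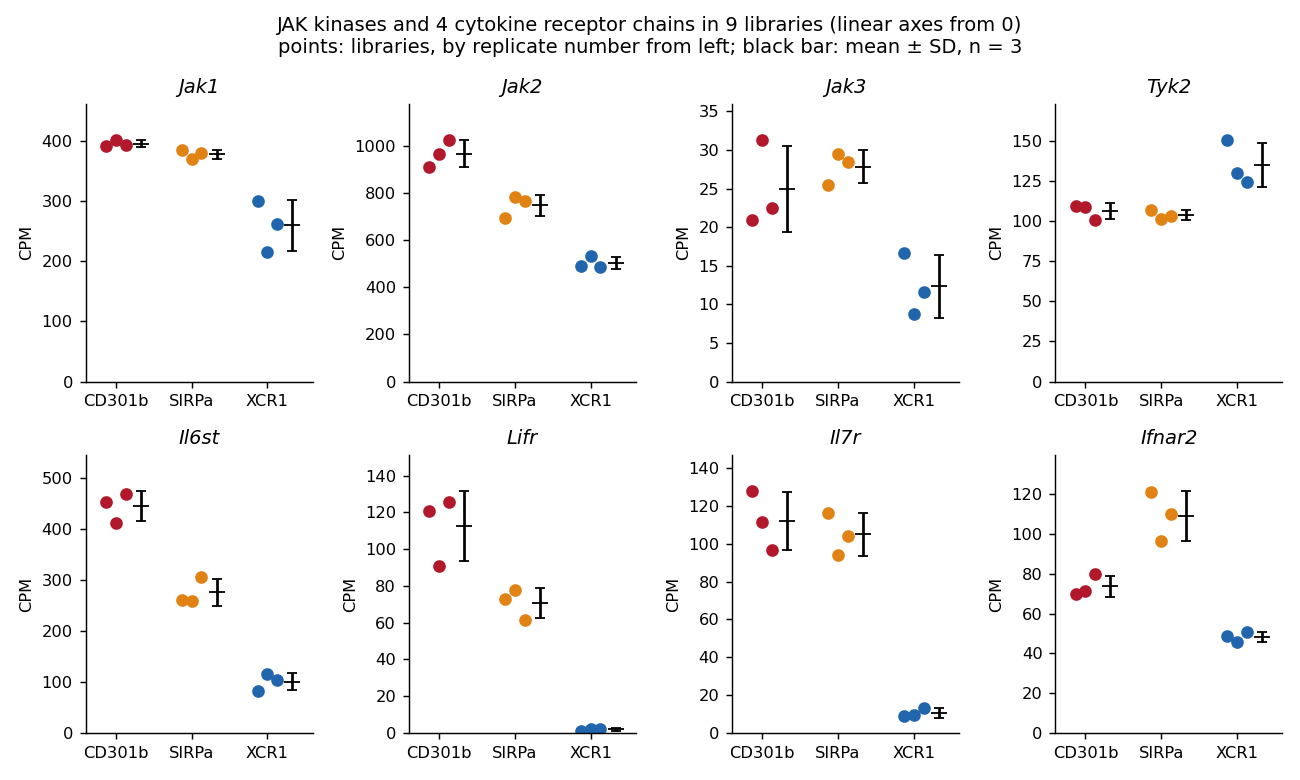
Level of the 4 JAK kinases and of 4 receptor chains (y axis, CPM from 0) in the 9 libraries by population (x axis), with a black bar for mean ± SD of 3. Tyk2 is the panel where XCR1 libraries lie highest, with a mean of 135 CPM, and Lifr and Il7r are those where XCR1 libraries lie close to 0, with means of 1.91 and 10.5 CPM.

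Several receptor chains that signal through STAT3 were higher outside XCR1. Of 9 gp130 family chains tested, 4 were higher in CD301b than in XCR1 (Csf3r, Il6ra, Il6st and Lifr) and 5 in SIRPa (these and Il23r, the last lost on leaving out any SIRPa library or XCR1 replicate 2 or 3, with adjusted p of 0.0558 to 0.0907), with 0 lower. Il6st, which encodes gp130, stood at 445 ± 29.4 CPM in CD301b, against 276 ± 26.3 in SIRPa and 101 ± 17.1 in XCR1, and Lifr, the LIF receptor, at 112 ± 19.0, 70.7 ± 8.28 and 1.91 ± 0.750 CPM. Against XCR1 the log2 fold changes of Il6st were 2.15 ± 0.12 (adjusted p = 2.78e-11) and 1.46 ± 0.12 (9.66e-09), and those of Lifr were 5.87 ± 0.24 (2.28e-13) and 5.20 ± 0.24 (9.93e-13). Il6ra, the IL-6 binding chain, stood at 171 ± 19.2, 122 ± 8.75 and 61.7 ± 5.58 CPM. Il6st was also higher in CD301b than in SIRPa (0.69 ± 0.12, adjusted p = 0.00129), so the receptor chain that SOCS3 binds differed where Socs3 did not pass. Il12rb2, the signalling chain of the IL-12 receptor, which acts through STAT4, stood at 25.9 ± 4.73, 29.1 ± 2.45 and 28.7 ± 2.40 CPM and passed in no comparison (adjusted p = 0.681 to 0.966).

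Of 10 common gamma and TSLP receptor chains, 6 were higher in CD301b than in XCR1 and 1 lower (Il15ra). In SIRPa 9 were higher than in XCR1. Of those 9 calls, Il2rb, Crlf2 and Il13ra1 were lost without SIRPa replicate 1 (adjusted p = 0.1335, 0.0897 and 0.0624) or 2 (0.0578, 0.0837 and 0.0532), and in other alternatives. Il7r, the IL-7 receptor chain that also serves TSLP, stood at 112 ± 15.5 CPM in CD301b, against 105 ± 11.2 in SIRPa and 10.5 ± 2.50 in XCR1, with log2 fold changes against XCR1 of 3.41 ± 0.18 (adjusted p = 4.27e-12) and 3.32 ± 0.18 (6.18e-12). Il2rg, the common gamma chain, was higher than in XCR1 by 2.25 ± 0.15 in CD301b (1.94e-10) and 2.24 ± 0.15 in SIRPa (2.16e-10). Of 6 common beta and growth factor receptor chains tested, 1 was lower in CD301b than in XCR1, with 0 higher, and in SIRPa 2 were higher (the close paralogs Csf2rb and Csf2rb2, whose reads may be exchanged) and 1 lower. The lower gene in both was Flt3, the receptor of FLT3 ligand, at 326 ± 21.0, 252 ± 4.04 and 519 ± 46.2 CPM in CD301b, SIRPa and XCR1. Csf2ra, the GM-CSF binding chain, stood at 116 ± 5.60, 95.6 ± 4.24 and 98.3 ± 9.99 CPM and passed in no comparison (adjusted p = 0.172 to 0.873). The Csf2rb call (adjusted p = 0.0479) was lost with no filter on low counts and on leaving out any 1 SIRPa or XCR1 library or CD301b replicate 1 or 3 (0.0536 to 0.170). DESeq2 called 4 higher, with Il3ra and with Ghr, which the filter had removed.

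Of 7 interferon and IL-10 receptor chains, 2 were higher in CD301b than in XCR1 (Ifnar2 and Il10ra) and 1 lower (Ifnlr1, lost without XCR1 replicate 1), and 4 were higher in SIRPa (Ifnar1, Ifnar2, Il10ra and Il10rb). Ifnar2, a chain of the type I interferon receptor, stood at 73.7 ± 5.44 CPM in CD301b, against 109 ± 12.4 in SIRPa and 48.2 ± 2.51 in XCR1, opposite in direction to Stat2 and Tyk2, with log2 fold changes against XCR1 of 0.61 ± 0.13 (adjusted p = 0.00146) and 1.18 ± 0.13 (6.86e-07).

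Of 4 other SOCS genes (Socs4, Socs5, Socs6 and Socs7), Socs6 was the 1 gene that passed with edgeR, at 53.5 ± 5.14, 51.1 ± 1.29 and 26.4 ± 3.60 CPM, with log2 fold changes against XCR1 of 1.02 ± 0.16 (adjusted p = 5.94e-05) and 0.95 ± 0.16 (0.000118). Of the 4 partners that join SOCS proteins to the ubiquitin ligase, 0 passed in any comparison with edgeR and all libraries (1 had an unadjusted p under 0.05, in SIRPa against XCR1, and 0 in the others). That 1 was Elob, a subunit of the ligase, at 43.0 ± 3.86 CPM in SIRPa and 57.2 ± 2.27 in XCR1 (-0.41 ± 0.15, adjusted p = 0.0501). It passed with DESeq2 (adjusted p = 0.0298), in edgeR's fit of only those 6 libraries (0.0413) and on leaving out CD301b replicate 1 (0.0460) or 4 (0.0320). Cul5, the scaffold of that ligase, stood at 59.4 ± 10.7, 51.9 ± 4.63 and 56.3 ± 9.65 CPM. Of 12 other negative regulators, 4 were higher (Ptpn1, Ptpn6, Ptprc and Usp18) and 3 lower (Cblb, Ptpn11 and Sh2b3) in CD301b than in XCR1. Of these, Usp18 (adjusted p = 0.0314) was lost on leaving out XCR1 replicate 1 or 3, SIRPa replicate 3 or any CD301b library (range 0.0519 to 0.168), and Sh2b3 (0.0295) on leaving out CD301b replicate 1 or any XCR1 library (0.0503 to 0.128). In SIRPa 3 were higher (Ptpn1, Ptpn6 and Ptprc, the last lost without SIRPa replicate 3, 0.0549) and 1 lower (Ptpn11). Ptpn1, a phosphatase that acts on JAK kinases, stood at 236 ± 13.4, 233 ± 12.8 and 77.8 ± 1.59 CPM, and Ptpn6, the phosphatase SHP-1, at 405 ± 47.2, 408 ± 14.6 and 197 ± 27.6 CPM.

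Textbook targets of the other STATs gave mixed counts. Of 8 STAT5 targets tested besides the 9 genes, 5 were higher in CD301b than in XCR1 (Bcl2, Ccnd1, Ccnd2, Il2ra and Osm), or 3 without CD301b replicate 1. In SIRPa 4 were higher (these but Ccnd1, with Osm lost without SIRPa replicate 1, 0.0540) and 1 lower. Bcl2, which protects cells from death, stood at 36.2 ± 12.9, 28.3 ± 4.76 and 13.9 ± 0.638 CPM, while Bcl2l1 stood at 42.9 ± 6.13, 55.2 ± 3.99 and 46.1 ± 3.56 CPM and passed in no comparison. Pim1, a kinase in both the STAT3 and the STAT5 list, was the lower one in SIRPa, at 161 ± 17.8, 111 ± 3.64 and 175 ± 20.2 CPM. Of 8 STAT3 targets tested, 4 were higher in CD301b than in XCR1 (Bcl3, Ccnd1, Cebpd and Junb), and in SIRPa 2 were higher (Bcl3 and Cebpd) and 1 lower. The 4 became 2 with RLE size factors, in a fit of only those 6 libraries and without CD301b replicate 1 or 3, any single SIRPa library or XCR1 replicate 3. Bcl3, a regulator of NF-kappaB, was among those called in both, at 65.8 ± 4.82, 61.7 ± 7.27 and 29.5 ± 0.946 CPM, and Mcl1, another survival gene, stood at 445 ± 12.3, 409 ± 20.1 and 397 ± 39.6 CPM. Of 5 STAT4 targets tested, 0 passed in CD301b against XCR1 with edgeR or DESeq2 (0 had an unadjusted p under 0.05), while with no filter on low counts edgeR called Il18r1 (2.16, adjusted p = 0.0479), and in SIRPa 1 was higher (Il18r1) and 1 lower (Furin), the latter lost without SIRPa replicate 2 (adjusted p = 0.0510). Without XCR1 replicate 3, 2 of the 5 were higher in each of these comparisons.

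Between CD301b and SIRPa these lists held fewer calls. In the gp130 family 3 were higher and 1 lower in CD301b, in the common gamma and TSLP chains 1 was higher and 4 lower, and in the other 9 lists at most 1 passed. The 3 gp130 family genes became 1 without CD301b replicate 4 or SIRPa replicate 1, 2 or 3, with Il6st the one that stayed, the lower gene (Il23r) was lost without CD301b replicate 1 or SIRPa replicate 1 or 3, and the 4 lower genes became 2 without CD301b replicate 1 or 4 or any single SIRPa library. Il13ra1, which pairs with the IL-4 receptor chain to bind IL-13, was the higher one of the second list, with 188 ± 27.8 CPM for CD301b against 87.6 ± 4.54 for SIRPa (1.10 ± 0.13, adjusted p = 1.90e-05).

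Markers of other cells moved with the comparisons against XCR1. All 7 cDC1 markers were lower and all 7 cDC2 markers higher in both CD301b and SIRPa than in XCR1. All 8 macrophage markers were higher too, with a summed level of 1443 to 1661 CPM in CD301b, against 2349 to 2728 in SIRPa and 88.4 to 109 in XCR1 libraries. Of 6 monocyte markers, 4 were higher in CD301b and 5 in SIRPa than in XCR1, with sums of 1142 to 1259, 1127 to 1197 and 80.4 to 125 CPM. Both sums were low where Socs3 was low. Between CD301b and SIRPa the macrophage sums did not overlap while Socs3 did, and the part of such cells in the Socs3 difference was not tested.

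The summed level of 8 mature dendritic cell markers was 2686 to 3087 CPM in CD301b, against 3244 to 3277 in SIRPa and 2262 to 2871 in XCR1 libraries, which puts SIRPa highest, as for Socs2 and Stat4. Its part in those differences was not tested. The sum of 10 immediate early and dissociation genes was 1519 to 2197 CPM in CD301b, against 1161 to 1381 in SIRPa and 1344 to 1386 in XCR1 libraries. Of these 10 genes, 4 were higher and 1 lower in CD301b than in XCR1, and 2 were higher and 2 lower in SIRPa than in XCR1, and their part in the Socs3 difference was not tested. Thymocyte and T cell markers summed to 319 to 467 CPM in CD301b, against 412 to 523 in SIRPa and 74.4 to 441 in XCR1 libraries, the highest XCR1 value being that of replicate 3. Of 10 tested, 1 was higher in each comparison with XCR1, and without that library 6 in CD301b and 5 in SIRPa. Without XCR1 replicate 3, the number of the 9 genes called was 6 in CD301b against XCR1 and 7 in SIRPa against XCR1, where 3245 and 3676 of 16433 genes tested were called. Plasmacytoid dendritic cell markers summed to 484 to 621 CPM in CD301b, 334 to 376 in SIRPa and 115 to 140.3 in XCR1 libraries, with 4 and 3 of 6 higher than in XCR1. Those of thymic epithelium and stroma summed to 192 to 231 CPM, 84.7 to 101 and 42.7 to 59.7, with Foxn1, Pdgfra and Col1a1 under 1 CPM. Of 6 tested, 3 were higher in CD301b than in XCR1 (Epcam, Krt5 and Pecam1) and 3 in SIRPa (Aire, Krt5 and Pecam1). Krt5 was lost in some alternatives. Both sums stood in the order of the Stat5a, Stat5b and Cish means, without overlap. NK and innate lymphoid cell markers summed to 124 to 154 CPM in CD301b, 142 to 156 in SIRPa and 68.6 to 91.5 in XCR1, B cell markers to 149 to 160.2, 164 to 214 and 85.8 to 137, and granulocyte markers to 23.3 to 33.5, 43.2 to 71.6 and 0.0499 to 25.4. Most of the NK and innate lymphoid sum in CD301b and SIRPa was Il7r, at means of 112 and 105 CPM against 10.5 in XCR1. Of the 7 genes of that list tested, Il7r was the 1 higher than in XCR1, and Klrk1 was lower in both comparisons. Most of the granulocyte sum in CD301b and SIRPa was Csf3r, at means of 28.5 and 39.6 CPM against 0.515 in XCR1. The part of the cells named by these lists in the differences of the 9 genes was not tested.

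**Figure D4:**
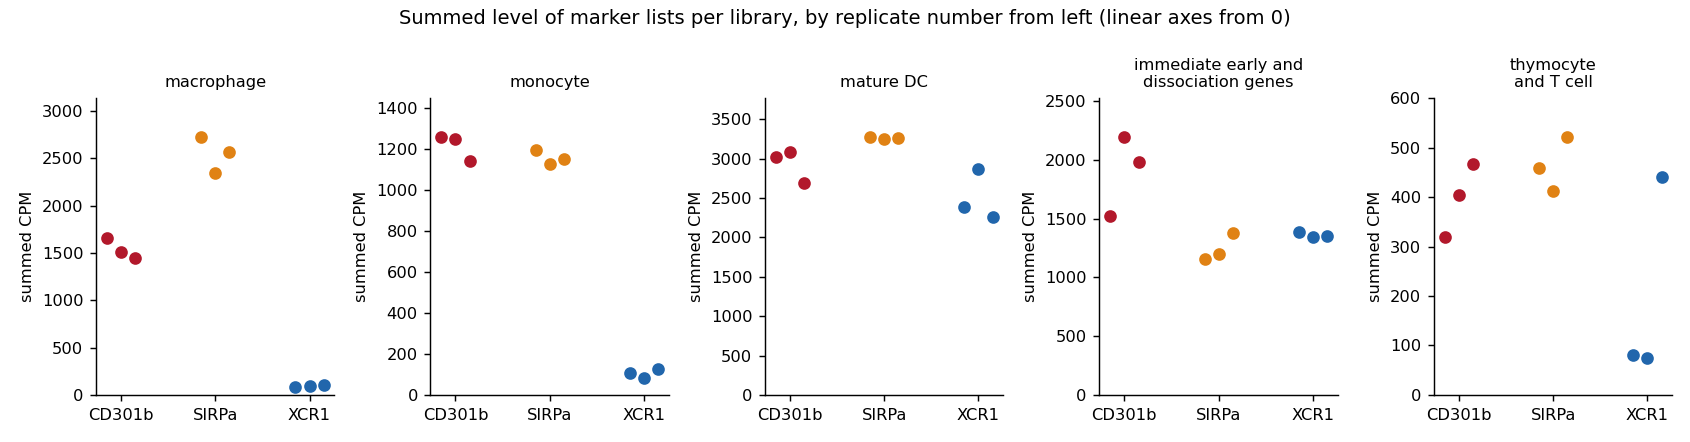
Summed level of 5 marker lists (y axis, CPM from 0) in the 9 libraries by population (x axis). Macrophage and monocyte sums are low in XCR1, at no more than 125 CPM, and the thymocyte and T cell sum of XCR1 replicate 3 lies at 441 CPM, apart from the other XCR1 libraries.

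For each of the 7 genes that passed somewhere, the genes with the most similar profile were sought among 9479 genes with at least 5 CPM. Likeness was the root mean square difference of log2 CPM over the 9 libraries, after each gene's own mean was taken off, so that 0 means the same profile. Closest to Socs3 were Spib, an ETS family transcription factor, with 0.25, and Ms4a6c with 0.30, where Socs3 itself varied by 1.70 on that scale. Spib stood at 60.3 ± 11.1, 57.5 ± 4.52 and 4.31 ± 0.711 CPM in CD301b, SIRPa and XCR1. Closest to Cish were Ptgr1 (0.42) and Pfkfb4 (0.46), against 1.56 for Cish itself.

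The paralogs Stat5a and Stat5b had different nearest genes, Ado (0.08) and Pitpna (0.10) for Stat5a and Hk1 (0.09) and Csrnp1 (0.09) for Stat5b. For Stat2 they were Pcbp2 (0.08) and Ipo5 (0.08), for Stat4 they were Ttyh2 (0.14) and Ncoa4 (0.15), and for Socs2 they were Lad1 (0.12) and Enpp4 (0.13). Hk1, the glycolytic enzyme hexokinase, stood at 80.2 ± 5.50, 64.5 ± 8.45 and 43.4 ± 4.67 CPM in CD301b, SIRPa and XCR1, the same order as Stat5b. These likenesses are over 9 libraries in 3 populations and were not tested.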

How the data were processed

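RNA-seq of sorted thymic dendritic cells was deposited as 2 tables. The submitters' processing notes name mm10, HISAT2, featureCounts (Subread), edgeR, SAMtools, Trimmomatic and FastQC. No source used here gives versions, annotation or strand setting. Reads of overlapping genes cannot be assigned with certainty. Per the labels and the values, the first deposited table gives unnormalized counts of reads by gene symbol. In it, 24 symbols had become dates and were left out (0.125 to 0.187% of a library). The authors' second table holds log2 CPM, and was used only for the comparison in the closing section.

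Genes were filtered with filterByExpr (minimum count 10), scaled by TMM and tested in 1 fit over 9 libraries with edgeR 4.0.16 (glmQLFit with robust estimation, glmQLFTest, two-sided; R 4.3.3), with Benjamini-Hochberg adjustment over 15417 genes. Intervals of log2 fold changes are the estimate ± SE times the t quantile, and counting intervals cover counting error only. Alternatives were DESeq2 1.42.0, other size factors, no filter, 6 libraries, a replicate block and leaving out each library. From each list the text gives values for up to 3 called genes, by lowest adjusted p, and the most abundant uncalled one. Other genes were named after their values were seen, to identify a count. A further list of target genes is not reported here. The genes and lists were chosen with earlier results of these data known.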

Additional observations from a re-analysis of the deposited data

How the results depend on the processing

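The number of the 9 genes called in CD301b against SIRPa, 0 with all libraries, was 1 with no filter on low counts, 1 in a fit of only those 6 libraries, 1 with DESeq2 and 0 to 2 on leaving out 1 library, and the genes were Socs2, Stat4 or Stat5a. In SIRPa against XCR1 they numbered 4 to 7, with 4 without SIRPa replicate 3, and in CD301b against XCR1 5 to 7, where all genes called numbered 3015 to 4042 and 2921 to 3249. Over all genes, 660 were called in CD301b against SIRPa and 328 to 813 on leaving out 1 library, with 328 without SIRPa replicate 1, 418 without SIRPa replicate 3 and 438 without CD301b replicate 3. Some differences that missed the threshold changed sign on leaving out 1 library: Socs1 ran from -0.32 to 0.0046 and Socs3 from -0.034 to 0.15 in CD301b against SIRPa, and Stat3 from -0.11 to 0.024 and Socs1 from -0.12 to 0.27 in CD301b against XCR1. The cause was not tested. Among the values of the 9 genes under these alternatives, 347 kept direction and side of the threshold, 15 lost a call, 9 gained one and 7 changed sign. Cish in XCR1 replicate 1 rests on 9 reads in a library of 20782089 counts. XCR1 replicate 3 held 96 Cish reads in 20513674 counts, and the cause of the gap was not tested.

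With the replicate number as a block, 1 of the 9 genes was called in CD301b against SIRPa (Stat5a, 0.49, adjusted p = 0.0465), 7 and 7 in the comparisons with XCR1, and Socs1 in CD301b against XCR1 turned to -0.058. All genes called numbered 660, 2913 and 4034. In the gene lists the block ended, among others, the calls of Il6ra (adjusted p = 0.0703), Lifr (0.0911), Il23r (0.0696), Il4ra (0.225) and Il9r (0.172) in CD301b against SIRPa, and of Tyk2 (0.0866), Usp18 (0.0859), Sh2b3 (0.0774) and Ccnd2 (0.0972) in CD301b against XCR1, and it called Elob (0.0463) lower in SIRPa than in XCR1. Deviations of libraries with the same number were only weakly correlated (r 0.00305 to 0.0413 over 7 pairs, against -0.0672 to 0.0481 over 20 pairs with different numbers). Of 9 libraries, 4 correlated best with their own number, and CD301b replicate 4 has no partner. Such correlations cannot show whether libraries of 1 number share a mouse.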

Other observations

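In the authors' deposited table of log2 CPM, all 9 genes were found, and their 27 differences between population means had the same sign as the fitted log2 fold changes in 27 of 27 cases. Both tables come from the same 9 libraries, so equal signs check the processing only and are not independent support. The median gap between a difference in the authors' deposited table and the fitted value was 0.0089 on the log2 scale, and the largest was 0.54. That was Cish in SIRPa against XCR1, where means of log values differed by 2.39 and the fit gave 1.85. For Cish in CD301b against XCR1 they were 3.09 and 2.57.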
